A study of Homo sapiens with 7 samples.

Results

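The comparison described here sets cells harvested straight after 90 min at 44 °C against untreated cells. It was chosen by the sample labels alone and uses 2 of the 7 arrays of the series, with 1 array a side. The cells were HSC-3, an established line from a human oral squamous cell carcinoma that grows as an epithelial culture. The control was kept at 37 °C, and the other arrays came from cells given 90 min of heat at 42 °C or 44 °C and taken 0, 6 or 12 h later, with recovery at 37 °C. All 7 conditions are cultures of the same line, and no agent other than heat is named. Total RNA was labelled with biotin and read on a microarray, on which each gene is covered by 1 or more sets of short probes. With 1 array per condition no test was possible, and every difference below is a difference between 2 arrays, without a replicate to check it, so that the array number sets the limit of precision.

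Heat unfolds proteins, and cells answer through heat shock factors such as HSF1, which bind heat shock elements in front of chaperone genes and raise their transcription within minutes. Chaperones of the HSP70, HSP90, HSP40 and small heat shock protein families hold or refold damaged proteins. Severe heat also slows splicing, translation and the processing of ribosomal RNA, and it switches on immediate early genes, which need no new protein to be transcribed.

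The values are probe set intensities as deposited, on a linear scale. Values under 21.4, the pooled median of the 7 arrays, were raised to that floor, so a gene under the floor on 1 array has only a bound. The 44 °C, 0 h array was the brightest of the series, with a median intensity of 32.1 against 22.4 for the control and 18.7 to 21 for the other 5 arrays. A gene is therefore said below to have risen or fallen only where it differed by at least 1 log2 unit (2-fold) in the same direction under 3 scalings: as deposited, after quantile normalization of all arrays, and after a shift that equalizes the medians. Folds are given as deposited and then after quantile normalization. The culture's own markers were bright: all 8 of the 12 basal squamous markers that had a single-gene probe set were at least 4 times the floor on both arrays, including the keratins KRT5 (6011 in the control, 11063 at 44 °C, 0 h) and KRT14 (11252 and 15234). Of the fibroblast markers 4 of 10 reached the floor in the control and 6 of 10 at 44 °C, 0 h, and their summed intensity was 352 and 647. Leukocyte markers summed to 113 and 222 with PTPRC under the floor on both arrays, and endothelial markers to 87.9 and 106. The part of other cell types in the results was not tested.

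Straight after 44 °C, 328 of the 14084 genes measured on either array were higher than in the control (2.33%) and 109 were lower (0.774%). Those that rose went from a median intensity of 26.3 to 106, so most were dim or under the floor before heat: 115 of the 328 were under the floor in the control. Those that fell went from a median of 65.7 to 26.4, and 39 of the 109 were under the floor at 44 °C, 0 h. The median difference was 1.26 log2 units among the genes that rose and -1.45 among those that fell, after quantile normalization, and 34 and 4 genes respectively passed 4-fold. The split between directions depended on the scaling, and further scalings, chosen after the values were seen, turned it either way: 2657 higher and 69 lower with the hybridization spike-ins held level, and 107 and 1732 with the poly-A spike-ins held level. As deposited, 1490 genes were at least 2-fold higher and 109 lower (93.2% higher), and the median of all genes was 0.43 log2 units above the control. Quantile normalization gave 373 higher and 406 lower (47.9% higher) with a median of 0.01. The median shift gave 384 and 375 (50.6% higher) with a median of 0.03. Probe sets of 1 gene differed in this contrast with an SD of 0.42 log2 units where bright and 0.56 where dim. That spread is between probe sets on the same 2 arrays and does not measure variation between arrays or cultures.

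**Figure D1:**
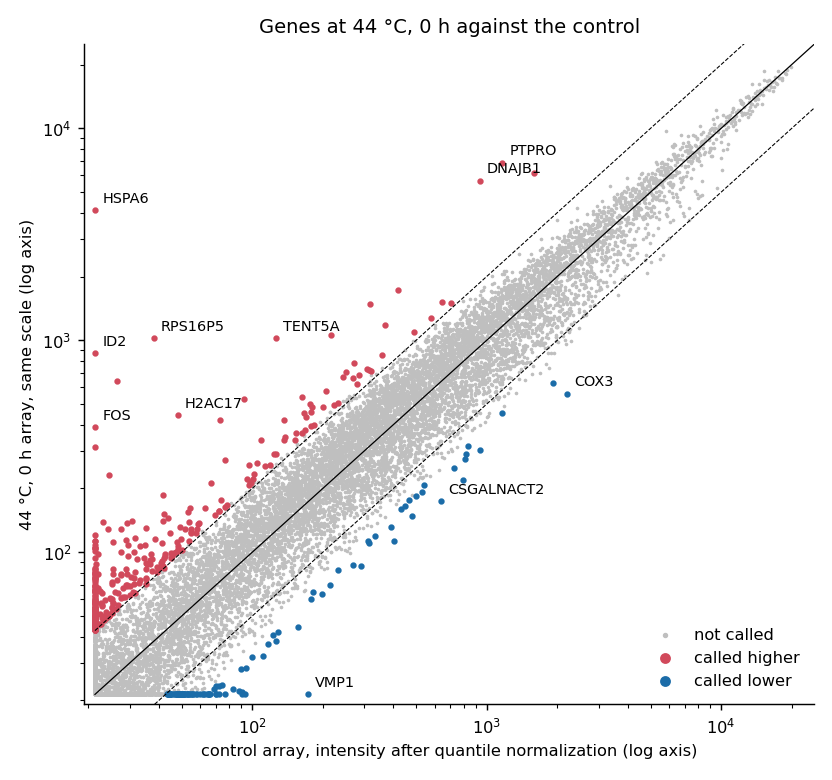
Intensity of each measured gene on the 44 °C, 0 h array (vertical log axis) against the control array (horizontal log axis) after quantile normalization; the solid line is equality and the dashed lines are 2-fold. Red points are the 328 genes that rose and blue points the 109 that fell under all 3 scalings; HSPA6, ID2 and FOS lie at the left edge because the control was under the floor.

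Among the chaperones, the strictly inducible HSP70 gene HSPA6 had the largest rise of all genes named here. HSPA6 (probe set 213418_at) read 4.82 in the control, 5143, 7596 and 8788 at 0, 6 and 12 h after 44 °C, and 12566, 262 and 18.9 at 0, 6 and 12 h after 42 °C. It was thus under the floor on the control array and high on all 3 arrays after 44 °C, whereas after 42 °C it was back under the floor at 12 h. The rise at 44 °C, 0 h was at least 241-fold as deposited and at least 193-fold after quantile normalization, and its other probe set moved the same way. HSPA6 has a near-identical neighbour, HSPA7, whose transcripts these probes may also bind.

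Within the 250 bases in front of the RefSeq start of HSPA6 lies a heat shock element of 3 alternating units, shown in capitals because it is the binding sequence of the heat shock factors. The element and the 30 bases on either side of it lie on the plus strand of GRCh38.p14, chr1:161524436-161524508, and the element ends 62 bases before the start.

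HSPA6: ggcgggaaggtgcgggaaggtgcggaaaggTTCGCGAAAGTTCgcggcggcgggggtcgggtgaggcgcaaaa

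The DNAJ cochaperones, which hand unfolded proteins to HSP70, gave the next clear rises. DNAJB1, the main partner of HSP70 in disaggregation, read 881 in the control and 7110, 7004 and 6989 at 0, 6 and 12 h after 44 °C, against 9949, 1354 and 1299 after 42 °C. It rose 8.07-fold (6.08-fold after quantile normalization). Its level was the same on all 3 arrays after 44 °C only as deposited, and read 5675, 6813 and 7462 after quantile normalization. DNAJB4, a related cochaperone, read 264 in the control, 809, 542 and 530 after 44 °C and 2453, 345 and 302 after 42 °C, a rise of 3.07-fold (2.48-fold). HSPA1L, an HSP70 gene best known from the testis, read 36.1 in the control, 167, 345 and 662 after 44 °C and 1008, 60.4 and 55.4 after 42 °C, a rise of 4.62-fold (3.68-fold). In all, 2 of 9 measured HSP70 and HSP110 genes and 2 of 11 HSP40 genes rose and none of either list fell, beside 2.33% of all genes rising. The medians of these lists were -0.01 and 0.28 log2 units after quantile normalization (0.48 and 0.69 as deposited), against 0.01 (0.43) for all genes. All gene lists were chosen with earlier results of these data known, so list counts here and below are descriptions and not tests.

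Most other chaperones did not pass the threshold under every scaling, and several were already bright in the control. HSPB1, the small heat shock protein HSP27, read 1116 in the control, 2664, 2052 and 3139 after 44 °C and 7209, 7115 and 6176 after 42 °C, so that the value at 44 °C, 0 h was 2.39 times the control as deposited and 1.80 times after quantile normalization. BAG3, which links HSP70 to small heat shock proteins and autophagy, read 1816 in the control, 4602, 4378 and 5148 after 44 °C and 7118, 5070 and 1864 after 42 °C. HSPH1, the HSP110 disaggregase, read 4976 in the control and 6951 at 44 °C, 0 h. HSP90AA1, the inducible cytosolic HSP90, read 13220 and 16311 on these arrays, and HSF1 242 and 413. Neither of the 2 measured heat shock factors, none of 12 HSP90 genes and cochaperones, none of 4 small heat shock proteins, none of 9 mitochondrial chaperones and none of 7 subunits of the TRiC chaperonin passed the threshold in either direction. Of all genes, 2.33% rose and 0.774% fell, so lists this short can hold none without differing from all genes. HSPA1A, HSPA1B, HSPA8 and HSF2 have no probe set listed for them alone and were not analysed here.

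**Figure D2:**
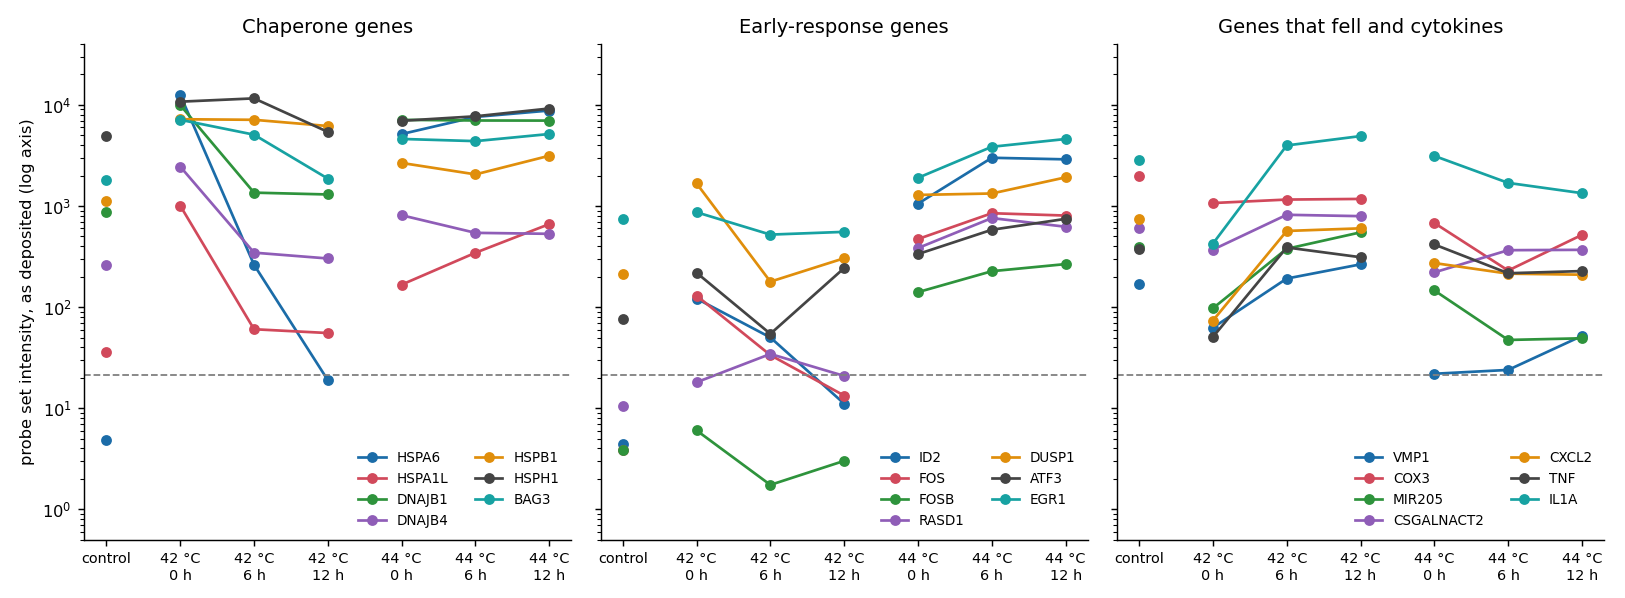
Deposited intensity (vertical log axis) of chaperone genes, early-response genes, and genes that fell or encode cytokines on each of the 7 arrays; lines join the 0, 6 and 12 h arrays of each temperature and the dashed line is the floor of 21.4. HSPA6, ID2 and FOS were under the floor in the control and above it on all 3 arrays after 44 °C, while TNF and IL1A at 44 °C, 0 h lay near the control.

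Early-response regulators were the next group. ID2, which binds basic helix-loop-helix factors and keeps them off DNA, read 4.46 in the control, 1054, 2996 and 2892 at 0, 6 and 12 h after 44 °C, and 121, 50.1 and 11.1 after 42 °C. It rose at least 49.4-fold (40.6-fold after quantile normalization) and was higher still on the later 44 °C arrays. Its relatives differed less: ID1 read 313 in the control and 596 at 44 °C, 0 h, and ID3 131 and 126, and neither passed the threshold. HES1, a repressor downstream of Notch, read 162 in the control, 149 at 42 °C, 0 h and 649 at 44 °C, 0 h, a rise of 4.0-fold (3.28-fold), although its other probe set above the floor had the opposite sign. ID2 and HES1 were the members that rose among 6 measured ID, HES and HEY genes, beside 2.33% of all genes.

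The AP-1 subunits, which pair into a transcription factor of the growth and stress response, gave 3 rises and no fall among 9 measured, beside 2.33% of all genes rising and 0.774% falling. FOS read 3.86 in the control, 471, 848 and 804 after 44 °C and 130, 33.5 and 13.3 after 42 °C, a rise of at least 22-fold (18.2-fold). FOSB read 3.90 in the control, 141, 226 and 266 after 44 °C and 6.03, 1.74 and 3.01 after 42 °C, a rise of at least 6.58-fold (5.06-fold). FOSB was thus above the floor on the 44 °C arrays alone, while FOS was above it after 42 °C at 0 and 6 h as well. ATF3, a stress-induced repressor of the same superfamily, read 76.6 in the control, 334, 582 and 746 after 44 °C and 219, 54.4 and 243 after 42 °C, a rise of 4.36-fold (3.55-fold). JUN, bright in the control at 1134, read 1941 and did not pass the threshold. The median of the AP-1 list was 0.40 log2 units after quantile normalization (0.83 as deposited).

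DUSP1, a phosphatase that switches off MAP kinases, read 213 in the control, 1285, 1329 and 1918 after 44 °C and 1673, 178 and 304 after 42 °C. It rose 6.04-fold (4.89-fold) and was the member that rose among 7 dual-specificity phosphatases, beside 2.33% of all genes rising. EGR1, a zinc finger factor induced by growth signals, read 747 in the control, 1898, 3849 and 4594 after 44 °C and 867, 521 and 555 after 42 °C. At 44 °C, 0 h it was 2.54 times the control as deposited and 1.93 times after quantile normalization, just short of the threshold. None of the 15 other measured immediate early genes, EGR1 among them, passed it, with a list median of 0.31 (0.80 as deposited). The growth-arrest, polo-like kinase and small GTPase list gave 3 rises among 10, beside 2.33% of all genes. This mixed list, like the others, was chosen with earlier results of these data known, so its count is a description and not a test. RASD1, a small GTPase first found as a steroid-induced gene, read 10.4 in the control, 384, 759 and 623 after 44 °C and 18, 34.4 and 20.8 after 42 °C, a rise of at least 18-fold (14.7-fold). PLK3, a stress-responsive polo-like kinase, read 26.4 in the control and 145 at 44 °C, 0 h (5.49-fold, 4.38-fold), with 1 of its 2 other probe sets moving the same way. GADD45G, which activates stress MAP kinases, read 21.1 and 105 (at least 4.93-fold, 3.66-fold).

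Several further regulators rose. GEM, a small GTPase that restrains calcium channels, read 73.1 in the control, 510, 537 and 920 after 44 °C and 917, 188 and 73.9 after 42 °C, a rise of 6.99-fold (5.78-fold). IER5L, a relative of the HSF1 target IER5, read 92.9 in the control, 639, 712 and 558 after 44 °C and 104, 67.3 and 39.5 after 42 °C, a rise of 6.88-fold (5.71-fold). SNAI1, a repressor of E-cadherin known from epithelial-mesenchymal transition, read 2.92 in the control, 133, 214 and 331 after 44 °C and 8.62, 4.34 and 2.56 after 42 °C, a rise of at least 6.21-fold (4.73-fold). SNAI1 was under the floor on the control and on all 3 arrays after 42 °C. E-cadherin (CDH1) itself read 1804 in the control and 1405 at 44 °C, 0 h. FN1, fibronectin, read 611 and 1885 (3.09-fold, 2.35-fold) with 3 of 4 other probe sets moving the same way. TENT5A and TENT5C, poly(A) polymerases that lengthen tails of some secretory mRNAs, both rose: TENT5A read 126 in the control, 1245 at 44 °C, 0 h and 3362 at 42 °C, 0 h (9.90-fold, 8.14-fold), and TENT5C read 18.1, 156 and 119 on the same arrays (at least 7.32-fold, 5.68-fold).

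The promoters of 2 early genes with a TATA box, FOS and DUSP1, are shown from 30 bases before the first element up to the start. In FOS the capitals mark the TATA box (TATAAA), in DUSP1 a cyclic AMP response element (TGACGTCA) and then a TATA box. FOS lies on the plus strand at chr14:75278765-75278827 and DUSP1 on the minus strand at chr5:172771196-172771350, both in GRCh38.p14.

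FOS: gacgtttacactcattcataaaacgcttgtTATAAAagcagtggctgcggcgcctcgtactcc

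DUSP1: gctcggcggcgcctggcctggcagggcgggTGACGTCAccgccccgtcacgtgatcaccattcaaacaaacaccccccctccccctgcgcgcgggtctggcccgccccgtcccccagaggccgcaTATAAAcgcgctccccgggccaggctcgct

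A promoter sequence was found for 11298 of the genes measured, for 244 of those that rose and for 84 of those that fell. Shares below are of genes with a promoter sequence, a gene counting where the 250 bases before any of its starts held a match. The heat shock element of 3 units (GAA and TTC in turn, beginning with either and with any 2 bases between units) was found for 0.557% of all 27305 genes and 0.487% of measured ones. It was found for 5 of the 244 genes that rose (2.05%) and for none of the 84 that fell. TATAAA, read on the gene's strand, was found for 8.38% of all genes and 5.73% of measured ones, for 12.7% of those that rose and for 7.14% of those that fell. TGACGTCA was in 2.03% and 3.28%, and in 3.69% and 1.19%. CCAAT or ATTGG, the same box on either strand, was in 37.0% and 40.9%, and in 45.1% and 36.9%. The shorter heat shock element of 2 units was in 14.0% and 12.3%, and in 13.9% and 7.14%. DNAJB1, DNAJB4, HSPA1L and HSPB1 hold a 2-unit element in this window and no 3-unit one. The same holds for HES1, IER5L, TAF6L and IKZF1, which rose, and for BMF, which fell. It also holds for JUN, ID1, IL1A, IL1B and DDIT4, which did not pass the threshold. BAG3 and HSPH1 of the chaperone lists hold none of the elements searched, and neither do RASD1, PLK3 and EGR1. ID2 holds a CCAAT box alone. HSP90AA1, which did not pass the threshold, holds a 3-unit element. So does FBXW10B, whose probe set used here was under the floor in the control and at 44 °C, 0 h. A match is a match of letters in this window and says nothing of binding, and no match says nothing of the factor.

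Of 12 listed structural RNAs, most of which normally lack a poly(A) tail, 2 had a probe set of their own. Both rose, beside 2.33% of all genes rising, and 2 genes are too few to describe the class. RPPH1, the RNA subunit of RNase P, read 27.4 in the control, 779, 431 and 406 after 44 °C and 412, 29.0 and 5.79 after 42 °C, a rise of 28.4-fold (24.2-fold). RNA45SN5, the precursor of ribosomal RNA, read 197 in the control, 581, 604 and 440 after 44 °C and 155, 345 and 133 after 42 °C, a rise of 2.94-fold (2.39-fold). RPPH1 and RNA45SN5 were thus high on all 3 arrays after 44 °C. Outside that list, RPS16P5, a pseudogene of a ribosomal protein gene, read 38.6 in the control, 1244, 436 and 302 after 44 °C and 627, 73.8 and 61.2 after 42 °C, a rise of 32.2-fold (27.0-fold). Pseudogene probes can bind the parent transcript or others like it.

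Replication-dependent histone genes, whose mRNAs end in a stem-loop instead of a poly(A) tail, were also among the genes that rose. Over histone genes with the symbols of the clustered families, a set taken after the values were seen, 11 of 40 measured rose (27.5%) and none fell, beside 2.33% of all genes rising. The median difference was 0.44 log2 units after quantile normalization (0.93 as deposited). The symbols also took in H1-10 and the pseudogene H2AC5P, neither of which passed the threshold. Some of the 40, such as H1-1 and H2BC3, were under the floor in the control and counted as measured through 44 °C, 0 h alone. The shorter list of histone genes used with the other lists gave 1 rise and no fall among 10 measured, with a median of 0.10 (0.55). H2AC17 read 49.1 in the control, 534, 192 and 186 after 44 °C and 23.0, 62.9 and 73.0 after 42 °C, a rise of 10.9-fold (9.20-fold). H2BC9 read 360 in the control, 1438, 560 and 614 after 44 °C and 492 at 42 °C, 0 h, a rise of 4.0-fold (3.21-fold). For both, the 0 h array after 44 °C was the highest of the 7. H2AC8 rose 3.03-fold (2.41-fold) from 73.4 to 223, H1-1 at least 4.26-fold (3.11-fold) from 8.48 to 91.1, and H2BC3 at least 3.89-fold (2.82-fold) from 12.1 to 83.1. H2BC21, whose mRNA can also be polyadenylated, read 50.7 in the control and 149 at 44 °C, 0 h (2.94-fold, 2.31-fold). Histone genes are near copies of each other, so probes of 1 gene may bind transcripts of another.

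The promoter of H2AC17, from 30 bases before its first box up to the start, is shown because it holds the boxes common to this gene class, CCAAT or its reverse ATTGG at 3 places and TATAAA next to the start, all in capitals. It lies on the minus strand of GRCh38.p14 at chr6:27893186-27893381.

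H2AC17: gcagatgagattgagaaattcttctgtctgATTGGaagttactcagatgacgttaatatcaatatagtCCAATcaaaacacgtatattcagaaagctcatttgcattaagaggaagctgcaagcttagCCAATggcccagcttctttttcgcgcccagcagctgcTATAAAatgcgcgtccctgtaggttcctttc

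The array's own control probe sets moved in the same samples and are given as measured values. The 3 probe sets for 28S ribosomal RNA, which has no poly(A) tail, were a median of 2.57 log2 units above the control array with the floor applied, and the 3 for 18S 1.70. Of the 28S probe sets the 3′ one was under the floor in the control. The 5′ probe set of 28S read 463 in the control, 19746, 17635 and 16444 at 0, 6 and 12 h after 44 °C and 7379, 755 and 379 after 42 °C. The poly-A spike-ins, bacterial transcripts with a tail that are added before labelling, were above the control array in 24 of 24 probe sets with a median of 0.88. The hybridization spike-ins, added after labelling, were above it in 3 of 18 with a median of -0.16. Several probe sets read each spiked transcript, so these counts are not of independent measurements. Probe sets for GAPDH and ACTB were 0.21 and 0.32 above. The ratio of the 3′ to the 5′ probe set, a measure of RNA integrity, was 0.993 in the control and 0.875 at 44 °C, 0 h for GAPDH, and 1.26 and 1.29 for ACTB. The part of labelling, RNA content or the amount of RNA per cell in the rises of untailed transcripts was not tested, and with 1 array a side these cannot be told apart from the heat.

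**Figure D3:**
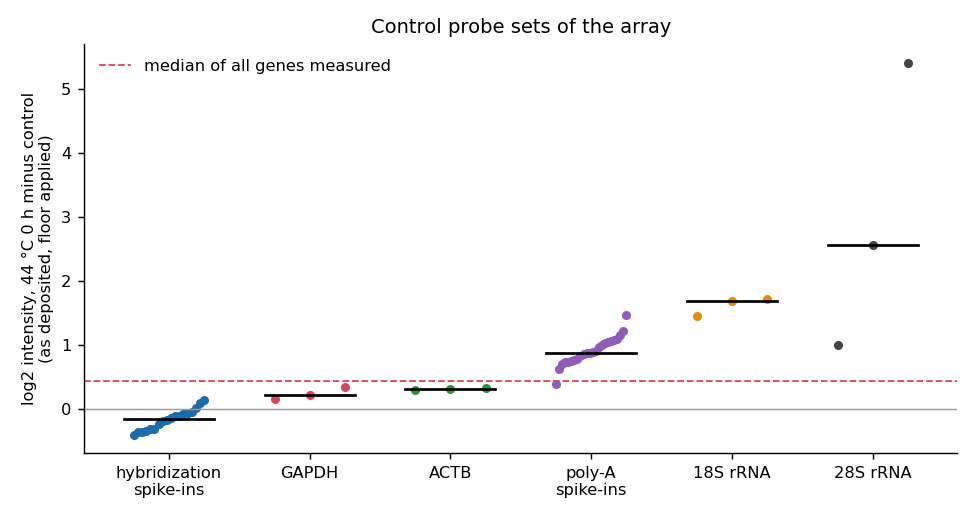
Difference in log2 deposited intensity between the 44 °C, 0 h and control arrays (vertical axis) for each control probe set, grouped by kind; black bars are group medians and the dashed line is the median of all measured genes, 0.43; values under 21.4 were raised to it. The hybridization spike-ins lie around -0.16, the poly-A spike-ins around 0.88, and the 18S and 28S probe sets have medians of 1.70 and 2.57.

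Probe sets that the array annotation pairs with no gene were looked at after the values were seen. Of 5233 unlisted ones that reached the floor on either array, 426 were higher under all 3 scalings (8.14%) and 47 lower (0.898%), against 730 (2.69%) and 335 (1.24%) of 27098 probe sets of single genes. Unlisted probe sets were dim, with a median of 27.8 in the control against 100 for single genes. With a bright value required on either array, 291 of 1496 unlisted ones were higher (19.5%) and 15 lower. Of 16312 bright single-gene probe sets, 467 were higher (2.86%) and 153 lower. A dim probe set could pass this filter through its rise at 44 °C, 0 h alone, which can inflate the share of a dim class. How many of the 291 unlisted ones entered in that way was not counted. The 2 with the largest rise were 243489_at, which read 19.4 in the control, 2337, 2226 and 1829 after 44 °C and 185, 28.2 and 13.2 after 42 °C, and 243791_at, which read 26.8, then 1524, 363 and 156, and 923, 30.3 and 2.62. The first rose at least 109-fold (88.6-fold) and stayed high on the later 44 °C arrays, and the second rose 56.8-fold (47.9-fold) and was lower on each later one. Their transcripts are not named here.

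PTPRO, a receptor-type tyrosine phosphatase, had the highest value at 44 °C, 0 h among the named genes that rose. It read 1097 in the control, 8406, 2950 and 3134 after 44 °C and 1453, 1229 and 1435 after 42 °C, a rise of 7.66-fold (5.92-fold) in its single probe set above the floor. TAF6L, a subunit of histone acetyltransferase complexes, read 24.1 in the control, 178, 136 and 110 after 44 °C and 24.4, 31.1 and 17.4 after 42 °C, a rise of 7.39-fold (6.01-fold). Both had their 3 highest values on the arrays after 44 °C. IKZF1, a lymphoid zinc finger factor, read 5.29 in the control and 147 at 44 °C, 0 h, a rise of at least 6.87-fold (5.30-fold). ELF3, an epithelial ETS factor, read 42.8 in the control, 193, 92.8 and 78.1 after 44 °C and 8.76, 3.38 and 20.5 after 42 °C, a rise of 4.50-fold (3.61-fold) to the highest value of the series. COL2A1, the collagen of cartilage, read 22.3 in the control, 117 at 44 °C, 0 h, 836 at 44 °C, 12 h and 432 at 42 °C, 0 h, a rise of 5.25-fold (4.08-fold) at 44 °C, 0 h.

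Under all 3 scalings together the falls were fewer than the rises, at 109 against 328. These 109 were also all the falls on the deposited scale, where the 44 °C, 0 h array was brighter. Quantile normalization alone gave 373 higher and 406 lower, so the balance turned with the scaling. The VMP1 probe set 1569003_at, for a membrane protein needed to form autophagosomes, had the largest fall: it read 170 in the control, 21.9, 23.9 and 51.9 after 44 °C and 62.5, 191 and 265 after 42 °C, a fall of 7.78-fold (at least 8.09-fold after quantile normalization, where it was under the floor). It was low on all 3 arrays after 44 °C and, after 42 °C, at 0 h. No other single-gene VMP1 probe set reached the floor for comparison. COX3, which the mitochondrial genome encodes as a core part of respiratory complex IV, read 1987 in the control, 678, 230 and 518 after 44 °C and 1069, 1157 and 1174 after 42 °C, a fall of 2.93-fold (3.91-fold). The other 6 measured mitochondrial transcripts did not pass the threshold: COX1 read 17893 in the control and 21350 at 44 °C, 0 h, and COX2 15684 and 17926. The COX3 probe set is of a class designed with some probes that match other transcripts.

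MIR205HG and MIR205, the host transcript and the listed microRNA gene of 1 locus, fell together. The probe set listed for MIR205 read 394 in the control, 146, 47.3 and 49.1 after 44 °C and 97.3, 377 and 548 after 42 °C, a fall of 2.70-fold (3.57-fold). The MIR205HG probe set read 382 in the control, 168, 117 and 88.8 after 44 °C and 87.4, 391 and 328 after 42 °C, a fall of 2.27-fold (2.98-fold). Both were low straight after heat at either temperature, and the later arrays were low after 44 °C and near the control after 42 °C. Together with VMP1, whose transcript hosts a microRNA at its end, they made 3 falls and no rise among 6 measured microRNA host transcripts, with a median of -1.14 log2 units (-0.76 as deposited), beside 0.774% of all genes falling. The array reads the long transcript, and the mature microRNA was not measured.

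The mature products of this locus in RefSeq are shown with the seed, bases 2 to 8, in capitals, since miR-205 is a marker of squamous epithelium. Both lie on the plus strand of GRCh38.p14, the 5p arm at chr1:209432166-209432187 and the 3p arm at chr1:209432203-209432223, and their seeds differ.

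hsa-miR-205-5p: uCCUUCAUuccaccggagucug

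hsa-miR-205-3p: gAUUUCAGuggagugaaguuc

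CSGALNACT2, an enzyme of chondroitin sulfate synthesis, read 608 in the control, 220, 365 and 368 after 44 °C and 370, 818 and 793 after 42 °C, a fall of 2.76-fold (3.66-fold). MOB1B, an activator of the Hippo pathway kinases, read 881 in the control and 370, 203 and 134 after 44 °C, a fall of 2.38-fold (3.08-fold) at 0 h with lower values on the later arrays. EVI5, a regulator of Rab GTPases and cell division, fell 2.48-fold (3.25-fold) from 468 to 189. MTERF1, a mitochondrial transcription termination factor, fell 2.46-fold (3.53-fold) from 156 to 63.5. LRP12, a member of the low-density lipoprotein receptor family, fell 2.47-fold (3.35-fold) from 285 to 115, USP46, a deubiquitinase, 2.28-fold (3.10-fold) from 264 to 116, and KLHL23, of the kelch family, 2.78-fold (4.11-fold) from 90.4 to 32.5. These genes share no list. Zinc finger genes named ZNF, taken by symbol after the values were seen, gave 11 falls (3.11%) and 7 rises (1.98%) among 354, beside 0.774% and 2.33% of all genes. Among the 193 bright ones there were 2 falls and 4 rises. Their median was -0.18 log2 units (0.16 as deposited), so its sign turned with the scaling.

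Inflammatory genes were bright in the untreated cells, and straight after 44 °C most were near the control. CXCL2, a neutrophil chemokine, was the member that fell among 14 measured chemokines and cytokines of the NF-kB pathway, beside 0.774% of all genes falling. It read 745 in the control, 272, 214 and 209 after 44 °C and 73.5, 566 and 601 after 42 °C. The fall was 2.73-fold (3.59-fold), with 1 of 2 other probe sets moving the same way. TNF, the founding member of its cytokine family, read 377 in the control and 416 at 44 °C, 0 h, IL1A 2859 and 3126, IL1B 2986 and 3536, and CXCL8 4439 and 4752. For these 4 genes and the stress gene DDIT4 (2875 and 3085), the difference was above 0 as deposited and below 0 after quantile normalization. The list median was -0.37 log2 units after quantile normalization and 0.11 as deposited. NFKBIZ, a nuclear IkB protein that helps induce secondary inflammatory genes, rose 3.32-fold (2.72-fold) from 165 to 548. It was the member that rose among 12 NF-kB subunits and feedback genes, beside 2.33% of all genes rising.

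Of the 45 gene lists examined, 26 held no gene past the threshold in either direction, beside 2.33% of all genes rising and 0.774% falling. At such shares a short list can hold none without differing from all genes. The 26 lists, grouped because they held none, covered 317 measured members. Among these were all 27 proteasome subunits, 25 ribosomal proteins, 24 splicing factors, 23 nuclear genes of oxidative phosphorylation, 21 genes of G1/S and DNA replication and 20 of G2/M and mitosis. The list medians ran from -0.31 (the circadian clock) to 0.40 log2 units (the heat shock factors) after quantile normalization. Ribosomal proteins had a median of 0.01 (0.30 as deposited) and G2/M genes -0.14 (0.29). None of 12 p53 targets passed, with a median of -0.26 (0.15 as deposited), and CDKN1A, the p53-induced inhibitor of cyclin-dependent kinases, read 489 in the control and 813 at 44 °C, 0 h. None of 16 genes of the unfolded protein response of the endoplasmic reticulum passed either, with a median of 0.09 (0.54).

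Single members moved in the remaining lists, whose counts stand beside 2.33% of all genes rising and 0.774% falling. CHAC1, which degrades glutathione, was the 1 gene of 16 in the ATF4 integrated stress response to fall, from 99.5 to 46.7 (2.13-fold, 3.10-fold), and DDIT3 (CHOP), which drives apoptosis under prolonged stress, read 182 and 125. BMF, a BH3-only protein that promotes apoptosis, was the 1 of 12 pro-apoptotic genes to fall, from 49.3 to 11.5, by at least 2.31-fold (2.27-fold). HMOX1, heme oxygenase, was the 1 of 11 NRF2 targets to rise, from 15 to 68.2, by at least 3.20-fold (2.27-fold). The cholesterol synthesis genes HMGCS1 (126 to 353, 2.80-fold, 2.29-fold, other probe set of opposite sign) and DHCR7 (219 to 598, 2.73-fold, 2.23-fold) rose among 9 measured, beside a list median of 0.07 (0.49). IFIT2, an interferon-induced antiviral gene, was the 1 of 12 interferon genes to fall, from 89.5 to 41.4 (2.16-fold, 3.17-fold). The invasion and mesenchymal list gave rises of SNAI1 and FN1 and a fall of CDH2 (N-cadherin, 47.4 to 22.8, 2.08-fold, at least 2.19-fold, other probe set of opposite sign) among 15.

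**Figure D4:**
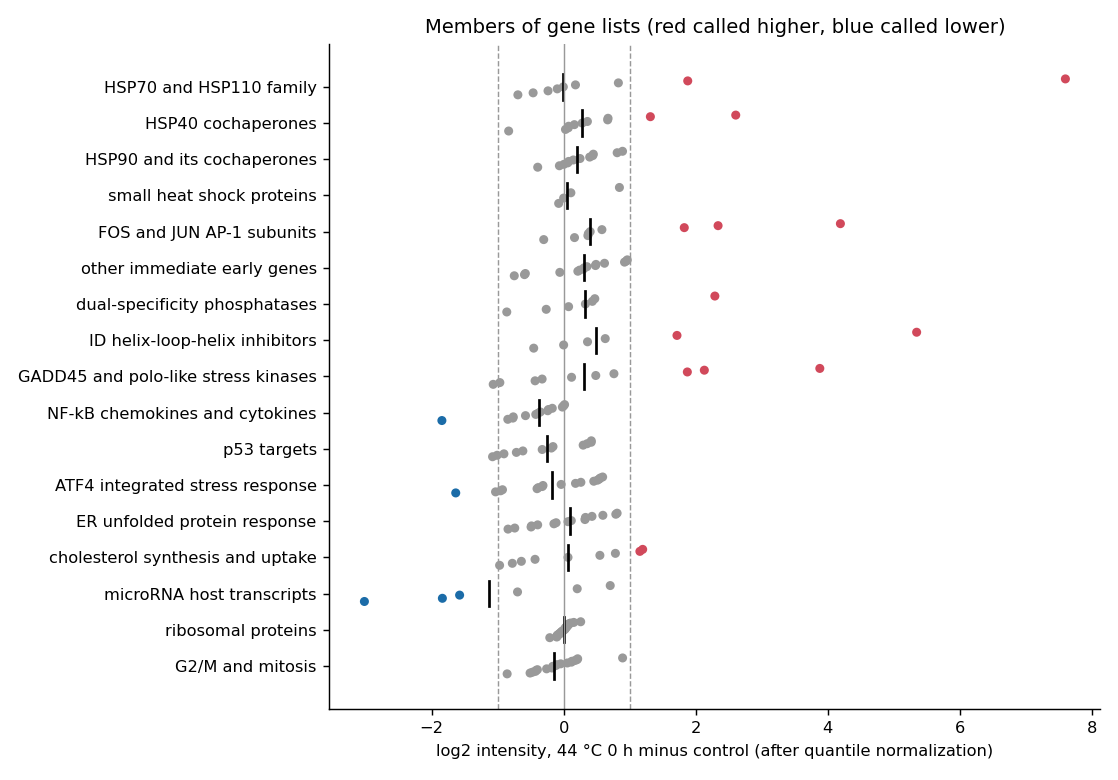
Difference in log2 intensity between 44 °C, 0 h and the control after quantile normalization (horizontal axis) for each measured member of 17 gene lists; black bars are list medians, dashed lines are 2-fold, and red and blue points are members that rose or fell under all 3 scalings. Ribosomal proteins cluster at 0.01, while HSPA6, ID2 and FOS lie far to the right of their lists and VMP1 to the left of the microRNA hosts.

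Set directly against the array taken straight after 42 °C, which the control does not enter, 452 of 13895 genes were higher at 44 °C (3.25%) and 94 were lower (0.677%). Taken as deposited, the values gave 2652 higher and 94 lower (96.6% higher). Quantile normalization turned this into 474 and 486 (49.4%), and the median shift into 579 and 410 (58.5%). The medians of all genes were 0.58, 0.04 and 0.07 log2 units.

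Several inducible chaperones were lower after the hotter treatment at this time, while the HSP90, mitochondrial and TRiC lists held no gene past the threshold. HSPA6 was 2.44-fold lower at 44 °C than at 42 °C (3.31-fold after quantile normalization), HSPA1L 6.05-fold (8.78-fold, its 1 other probe set of opposite sign), DNAJB4 3.03-fold (4.19-fold) and HSPB1 2.71-fold (3.78-fold). HSPB8, a small heat shock protein that works with BAG3, was 4.40-fold lower (6.67-fold, its 1 other probe set of opposite sign), at 117 against 513. In counts, 2 of 9 HSP70 and HSP110 genes, 1 of 11 HSP40 genes and 2 of 4 small heat shock proteins were lower and none was higher, beside 0.677% of all genes lower and 3.25% higher. None of 12 HSP90 genes and cochaperones, 9 mitochondrial chaperones and 7 TRiC subunits passed in either direction, with medians of -0.09, 0.17 and 0.06 log2 units after quantile normalization (0.26, 0.64 and 0.54 as deposited). DNAJB1, at 7110 against 9949, did not pass the threshold. The median of the small heat shock proteins was -1.79 log2 units (-1.16 as deposited).

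Cytokine genes of the NF-kB pathway were often higher at 44 °C than at 42 °C. TNF was 8.23-fold higher (5.84-fold), at 416 against 50.5, IL1A 7.38-fold (5.22-fold), at 3126 against 424, CXCL3 4.91-fold (3.18-fold), at 138 against 28, and IL1B 3.98-fold (2.84-fold), at 3536 against 889. CXCL2, which fell against the control, was 3.71-fold higher (2.58-fold) than at 42 °C. In all, 7 of 14 cytokines and chemokines of the list were higher and none lower, with a median of 1.12 log2 units (1.67 as deposited), and so were 4 of 12 NF-kB subunits and feedback genes with a median of 0.60 (1.14), beside 3.25% of all genes higher. The inhibitors NFKBIA (1892 against 506) and TNFAIP3 (1566 against 451), named after their values were seen, were among the latter, at 2341 and 2003 in the control. For TNF, IL1A, NFKBIA and TNFAIP3 it was thus the 42 °C array that lay far from the control. DDIT4, a stress-induced inhibitor of mTORC1, was 4.48-fold higher (3.18-fold), at 3085 against 689.

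Genes that rose against the control and were higher than at 42 °C too included ID2 (8.69-fold, 6.18-fold), RASD1 (at least 18-fold, 14.7-fold), FOSB (at least 6.58-fold, 5.06-fold), FOS (3.63-fold, 2.60-fold), ELF3 (at least 9.04-fold, 7.11-fold), HES1 (4.35-fold, 3.13-fold), H2AC17 (23.2-fold, 16.4-fold), TAF6L (7.29-fold, 4.86-fold) and PTPRO (5.78-fold, 4.14-fold). Of the clustered histone genes taken by symbol 10 of 41 measured were higher at 44 °C, and of the shorter histone list 1 of 10, beside 3.25% of all genes. By list, 3 of 9 AP-1 subunits and 2 of 6 ID, HES and HEY genes were higher and none lower, 2 of 16 other immediate early genes were higher and 1 lower, and none of 7 dual-specificity phosphatases passed. ATF3, DUSP1 and GEM rose against the control at 44 °C and did not pass the threshold in this contrast.

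Lower at 44 °C than at 42 °C were also genes that 42 °C had left high. MMP3, a matrix metalloproteinase, read 73.1 in the control, 806 at 42 °C, 0 h and 85.2 at 44 °C, 0 h, 9.46-fold lower (15-fold). HERPUD1, which helps clear misfolded proteins from the endoplasmic reticulum, read 742, 2728 and 679, 4.02-fold lower (5.55-fold). PNLDC1, a trimming nuclease of piRNAs, read 3.71, 319 and 0.989, at least 14.9-fold lower (16.8-fold). In each, 44 °C, 0 h was close to the control or, with it, under the floor. TENT5A was 2.70-fold lower (3.71-fold) and COL2A1 3.68-fold lower (5.55-fold) than at 42 °C, although both rose against the control. VMP1 was 2.86-fold lower (at least 3.39-fold).

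**Figure D5:**
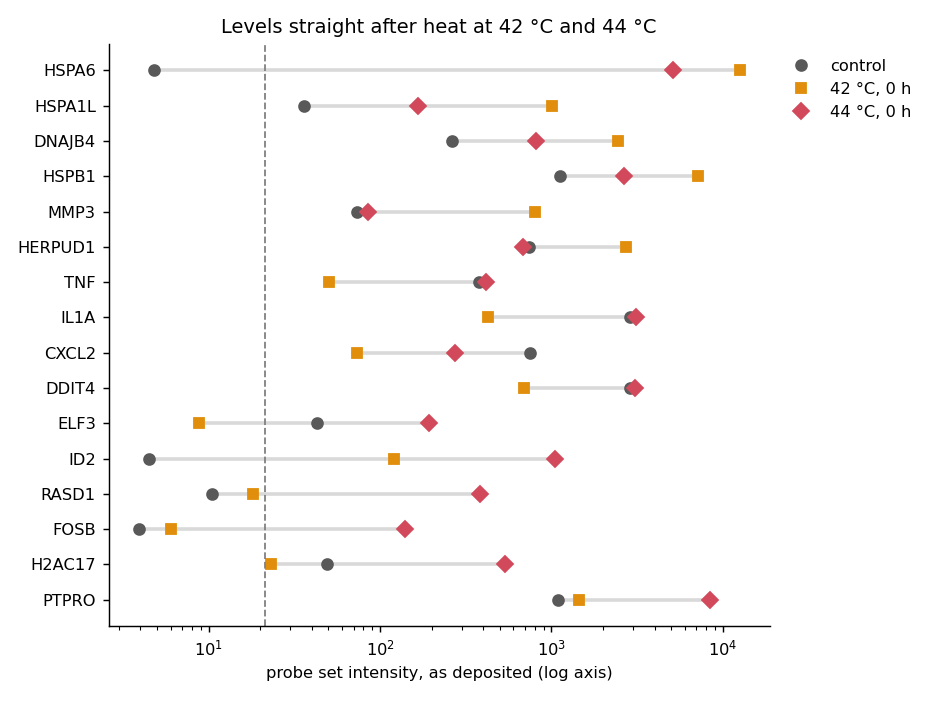
Deposited intensity (horizontal log axis) of 16 genes in the control (grey circles) and straight after 42 °C (orange squares) and 44 °C (red diamonds); the dashed line is the floor of 21.4. HSPA6, HSPA1L, DNAJB4 and HSPB1 lie between the control and the higher 42 °C value at 44 °C, TNF and IL1A lie at the control at 44 °C and below it at 42 °C, and ID2, RASD1, FOSB, H2AC17 and PTPRO are highest at 44 °C.

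Side by side with the other arrays, and sharing the control that also chose them, the genes that rose at 44 °C, 0 h had median differences from the control of 1.26, 0.97 and 0.98 log2 units at 0, 6 and 12 h after 44 °C and of 0.69, 0.47 and 0.34 after 42 °C, after quantile normalization. For the genes that fell the medians were -1.45, -1.01 and -1.03 after 44 °C and -0.79, -0.61 and -0.33 after 42 °C. HSPA6 was higher at 6 and 12 h after 44 °C than at 0 h, as were ID2, FOS, FOSB, SNAI1, ATF3 and EGR1. As deposited, H2AC17, H2BC9, PTPRO, TAF6L and RPS16P5 were lower at 6 and 12 h than at 0 h. TAF6L was not lower after quantile normalization, at 140, 156 and 152 on these 3 arrays. Among 9694 bright genes, those whose log2 values after quantile normalization ran most like ID2 over the 7 arrays were MIX23 (Pearson r = 0.993), FOS (0.992), SNF8 (0.992), ACAA1 (0.991) and GNB2 (0.990), a description over arrays that share their cell line and 1 control. The correlation takes no account of size. At 44 °C, 0 h on that scale ID2 was at least 40.6-fold above the control, but MIX23 1.51-fold, SNF8 1.36-fold, ACAA1 1.41-fold and GNB2 1.23-fold. Those 4 did not pass the threshold. As deposited, MIX23 read 204 in the control, 382, 321 and 257 after 44 °C and 258 at 42 °C, 6 h, so on that scale its later values were lower than at 0 h and those of ID2 higher.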

How the data were processed

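The authors deposited 1 table of linear probe set intensity values for each of 7 arrays. Per the labels' protocols, 5 µg of total RNA was labelled per sample; the algorithm and scaling behind the intensity values are not given in the sources used here. All 7 columns belong to this series, with 0 columns from other samples. The members, gene lists and rules were chosen with earlier results of these data known.

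Of 54675 probe sets, 62 were controls, 41091 listed 1 gene, 1801 several and 11721 were unlisted in the array annotation; 41037 single-gene probe sets had a symbol found in RefSeq (GRCh38.p14, names only). For each gene the brightest probe set listing it alone, on average over the arrays, was used, giving 19775 genes, of which 14084 reached the floor on the control or the 44 °C, 0 h array. Values were floored at the pooled median (21.4), and log2 differences of at least 1 under all 3 scalings were called. Bright means at least 85.4, 4 times the floor.

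Genes named were the 15 largest rises and 12 largest falls against the control, and 6 each way against 42 °C, among bright genes whose other probe sets above the floor had the same sign. To these were added up to 5 called members per list, 36 genes chosen by name (4 without a probe set of their own), and the 5 most like ID2. HSPB8, NFKBIA, TNFAIP3, CDH1, the mitochondrial transcripts and further histone genes were named after their values were seen. Promoter and microRNA sequences are from RefSeq. Python 3.11.15, pandas 2.3.3, NumPy 2.4.6 and matplotlib 3.10.9 were used, and the scripts were tested on simulated data. Alternatives were other floors, the mean of all probe sets, and 2 spike-in scalings added after the values were seen.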

Additional observations from a re-analysis of the deposited data

Results flagged for a closer look

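Control probe sets outside the gene comparisons were above the control array at 44 °C, 0 h. For 28S ribosomal RNA the 3′ probe set read 43.0, the 5′ probe set 19746 and the middle probe set 5783, against 4.38, 463 and 975 in the control. For 18S ribosomal RNA the 3′, 5′ and middle probe sets read 286, 137 and 177, against 86.8, 42.4 and 64.4. The poly-A spike-ins had a median difference of 0.88 log2 units. Each condition had 1 array, so no array could be set against others of its group.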

How the results depend on the processing

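No paired analysis was possible because each condition had 1 array, and no array could be left out. Against the control, where 328 genes rose and 109 fell, the deposited scale alone gave 1490 higher and 109 lower, quantile normalization alone 406 lower, and the median shift alone 375 lower. A floor of 2 times the pooled median gave 145 and 43, no floor 1124 and 393, and the mean of all probe sets of a gene 183 and 48. Scaling to the hybridization spike-ins gave 2657 and 69, and scaling to the poly-A spike-ins 107 and 1732, so the balance of directions depends on which controls are taken as constant. Against 42 °C, 0 h, where 452 were higher and 94 lower, the deposited scale gave 2652 higher, quantile normalization 486 lower and the median shift 410 lower. The doubled floor gave 262 and 58, no floor 1307 and 288, the mean of probe sets 268 and 55, the hybridization spike-ins 2726 higher, and the poly-A spike-ins 80 and 3289. Of 51 named genes that rose or fell, 15 were under 2-fold with the mean of probe sets, 8 with the poly-A shift, and 3 each with the higher floor and the hybridization shift. CDH2 changed sign with the mean of its probe sets, at 0.053 log2 units, and the cause was not tested. The medians of 42 of 45 lists changed sign with the poly-A shift and of 14 with quantile normalization or the median shift.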
